A study of Arabidopsis thaliana with 6 samples.

Results

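COR15A, XERICO and LEA4-5 are Arabidopsis thaliana genes known for their response to cold or water shortage, measured here in rosette leaves that had received neither stress. They were selected by symbol among probe sets paired with exactly 1 gene, which gave 3 probe sets of 13513 so paired and of 22746 compared. Plants were sampled at an age of 3 weeks and were wild type (WT) or mutant (atrap), raised in a growth room at 23 °C in cycles of 12 h light and 12 h dark without treatment. Each genotype was represented by 3 arrays, labelled as biological replicates. Neither the nature of the atrap allele, nor the number of plants behind an array, nor the hour of harvest is given in the sources used here. The 3 genes were taken from a longer list because they stood lower in atrap than in WT in these same arrays, so their difference between genotypes is given as a description and without a test.

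When a plant cools or dries, its cells accumulate small hydrophilic proteins that protect membranes and enzymes. Many of the genes for them are switched on by CBF/DREB transcription factors, which respond to cold, or through the hormone abscisic acid (ABA), which rises as water is lost. COR15A encodes such a protein that is imported into the chloroplast stroma and stabilises chloroplast membranes during freezing. LEA4-5 encodes a late embryogenesis abundant (LEA) protein of group 4, a largely disordered protein that is made in drying seeds and in leaves short of water. XERICO encodes a small RING-H2 zinc finger protein of the kind that takes part in ubiquitination, and plants that overproduce it hold more ABA and tolerate drought better. XERICO is also a target of DELLA proteins, the repressors of gibberellin signalling.

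RAP, whose listed synonym is ATRAP, was read first as a check of the labels. It is known as a chloroplast protein needed for the maturation of plastid ribosomal RNA. Its level on the log2 scale was 7.87, 7.44 and 7.76 in the WT arrays and 6.72, 6.35 and 6.51 in the atrap arrays, and the mutant arrays all lay below the WT arrays. The deposited log2 values ran from 3.12 to 15.01 and array medians from 6.50 to 6.57. Among probe sets whose other 2 arrays of the genotype lay within 0.5 log2 units of each other, WT replicate 3 stood more than 1 unit above them in 191 and atrap replicate 2 in 158, while none of the other 4 arrays did so in more than 4. Atrap replicate 2 also stood more than 1 unit below in 108 and WT replicate 1 in 42. Results that rest on these arrays are given with and without them. Of the 64 manufacturer's control probe sets, 29 were lower in all atrap arrays than in any WT array, and none was higher. The 3-prime minus 5-prime difference of 4 such control pairs, a sign of RNA integrity and labelling, shifted between WT and atrap by -0.35 and -0.15 log2 units for the actin pairs, -0.02 for GAPDH and 0.12 for ubiquitin. The part of these controls in the results below was not tested.

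COR15A had the largest difference of the 3. Its log2 level was 7.20, 7.81 and 7.93 in WT replicates 1, 2 and 3, and 6.50, 6.98 and 6.30 in the atrap replicates. All mutant arrays lay below all WT arrays, and the gap between the lowest WT array, replicate 1, and the highest mutant array, replicate 2, was 0.22 log2 units. Means were 7.65 ± 0.39 in WT and 6.59 ± 0.35 in atrap (SD, n = 3 each). The difference was -1.06 ± 0.23 log2 units (± standard error), or 2.08-fold lower in atrap. In these bulk leaf samples, fewer cells with the transcript and less transcript per cell cannot be told apart.

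XERICO read 8.20, 8.57 and 8.21 in the WT arrays and 7.58, 7.11 and 7.92 in the atrap arrays (log2). WT replicates 1 and 3 were nearly level, whereas the mutant arrays were spread over 0.81 log2 units. The groups did not overlap, with a gap of 0.28 between the lowest WT and the highest mutant array. Means were 8.33 ± 0.21 in WT and 7.54 ± 0.41 in atrap (SD, n = 3 each). The difference was -0.79 ± 0.21 log2 units (± standard error), or 1.73-fold lower in atrap.

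LEA4-5 read 6.18, 6.30 and 6.05 in the WT arrays and 5.21, 5.80 and 5.63 in the atrap arrays (log2). WT arrays lay close together, and the lowest of them was 0.25 log2 units above the highest mutant array. Means were 6.18 ± 0.12 in WT and 5.55 ± 0.31 in atrap (SD, n = 3 each), which gave a difference of -0.63 ± 0.16 log2 units (± standard error), or 1.55-fold lower in atrap. The level of LEA4-5 was near log2 6, under which differences in such array values are compressed.

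**Figure D1:**
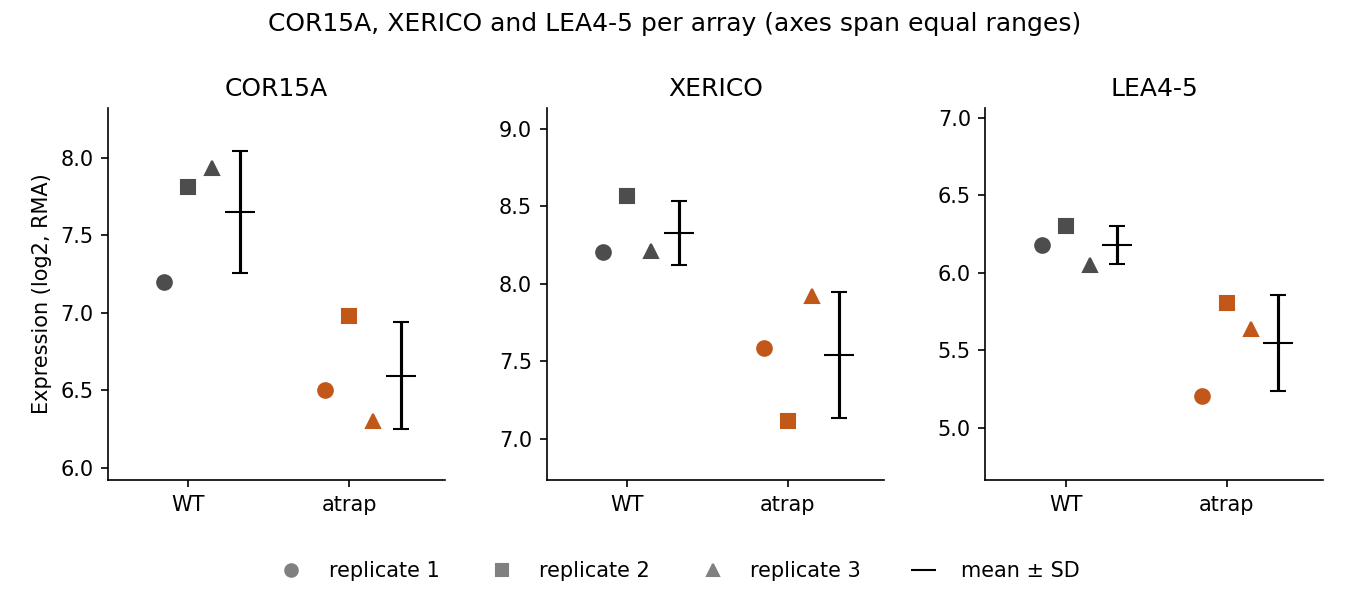
Log2 expression (RMA values) of COR15A, XERICO and LEA4-5 on each array, with the symbol giving the replicate number, and bars for the mean ± SD of 3 arrays per genotype. In each panel the 3 atrap arrays lie below the 3 WT arrays, with gaps of 0.22, 0.28 and 0.25 log2 units.

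The groups thus did not overlap for 3 of 3 genes. Over all probe sets compared, 16.5% had every atrap array below every WT array, and 6.41% were lower in atrap at a Benjamini-Hochberg adjusted p under 0.05 (limma). Since the genes were chosen from this contrast, nothing is read from their share. The values that chose them were adjusted p-values of 0.0299 for COR15A, 0.0414 for LEA4-5 and 0.0479 for XERICO, so that XERICO lay just inside the threshold. Just outside it lay COR15B, at 0.0544. With 1 array left out, calls were lost. The log2 fold changes then ranged from -1.28 to -0.91 for COR15A, from -0.98 to -0.57 for XERICO and from -0.76 to -0.46 for LEA4-5. Over all probe sets, the number past the threshold was then 350 to 3863, against 2981 with all arrays, or 13.1% of those compared. Among these fits, the adjusted p of XERICO was above 0.05 in 6 of 6, from 0.0504 without atrap replicate 3 to 0.159 without WT replicate 2, at log2 fold changes of -0.98 and -0.67. That of LEA4-5 was above 0.05 without WT replicate 1, 2 or 3 and without atrap replicate 1 or 3, with a highest value of 0.142 at a log2 fold change of -0.57 (without WT replicate 2). The log2 fold change of LEA4-5 was smallest without atrap replicate 1, at -0.46. The adjusted p of COR15A was above 0.05 without WT replicate 2 or 3 and without atrap replicate 1 or 3, with a highest value of 0.112 at a log2 fold change of -0.97 (without WT replicate 2). The direction could not turn in these fits, since the groups did not overlap, so nothing is read from its staying negative.

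**Figure D2:**
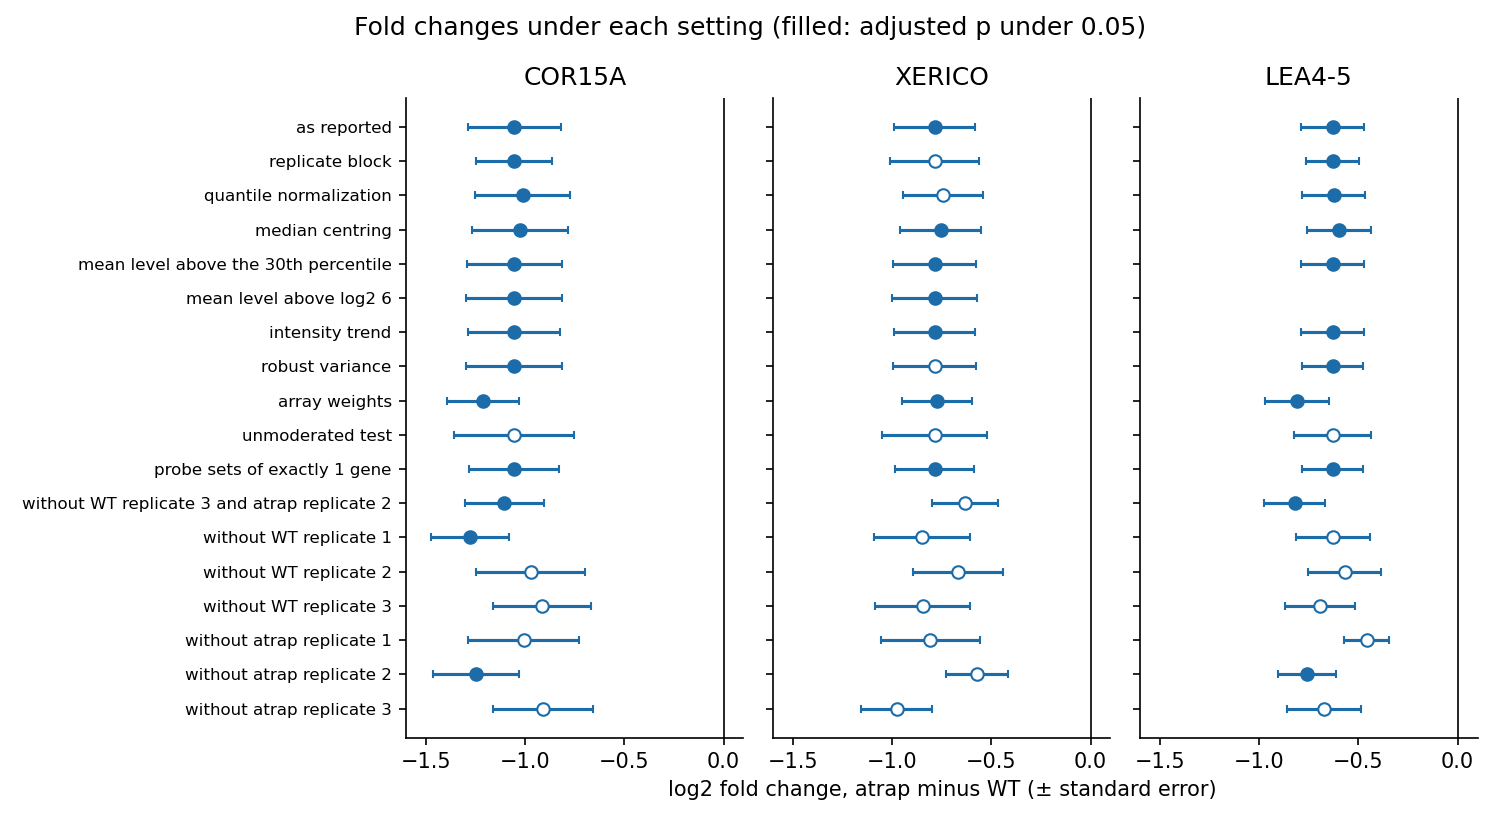
Log2 fold change (atrap minus WT) of the 3 genes, with bars for the standard error, as reported and under each alternative setting. Filled points have an adjusted p under 0.05, and LEA4-5 has no point at the filter of log2 6 because its mean level is below it.

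The 3 genes took different places among the arrays of a genotype. The spread of COR15A among WT arrays (SD 0.39) exceeded that of 96.2% of probe sets, where the median SD was 0.12. For XERICO the WT spread exceeded that of 81.5% and for LEA4-5 that of 53.5%, close to the middle of all probe sets. Among atrap arrays the spreads were alike, and those of COR15A, XERICO and LEA4-5 exceeded that of 95.4%, 96.8% and 94.0% of probe sets. Atrap replicate 2 did not take the same place for all 3 genes. It was the highest mutant array for COR15A, 0.38 log2 units above the atrap mean, and for LEA4-5, 0.26 above it. For XERICO it was the lowest mutant array, at -0.43 from the atrap mean. Without atrap replicate 2 the log2 fold changes were -1.25 for COR15A, -0.57 for XERICO and -0.76 for LEA4-5. XERICO then had a smaller difference than LEA4-5, the reverse of their order with all arrays. Without WT replicate 3 they were -0.91, -0.85 and -0.69 in the same order of genes, and without WT replicate 1 they were -1.28, -0.85 and -0.63. WT arrays parted the genes as well, since WT replicate 3 was the highest for COR15A and the lowest for LEA4-5.

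**Figure D3:**
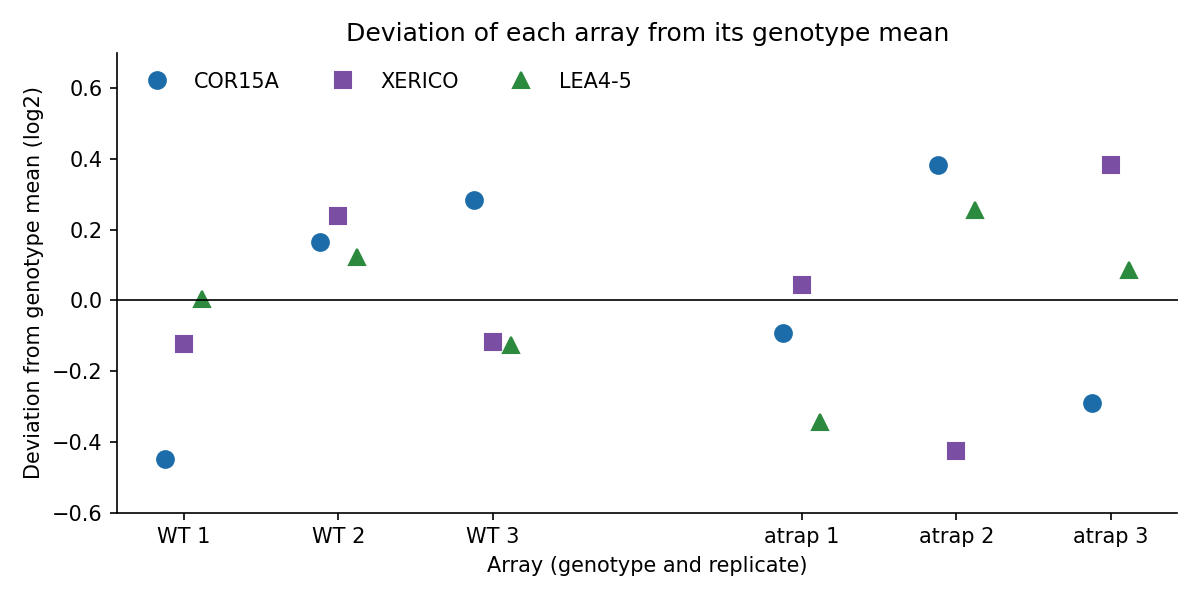
Deviation of each array from the mean of its genotype (log2 units) for COR15A, XERICO and LEA4-5. In atrap replicate 2 COR15A stands at 0.38 and LEA4-5 at 0.26, while XERICO stands at -0.43.

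Markers of other states moved with those arrays. Here and below, a listed gene counts as measured where a probe set was paired with that gene alone. CML38, a calmodulin-like gene known to respond to touch and wounding and the 1 measured of 6 such genes listed, read 7.58 in WT replicate 3 against 4.97 and 5.16 in the other WT arrays and 4.40 to 4.69 in atrap. GI, an evening gene of the circadian clock and the 1 measured of 11 clock genes listed, read 7.40 in atrap replicate 2 against 5.47 and 5.37 in the other atrap arrays and 5.14 to 5.48 in WT. The cold-regulated gene COR27 ran the other way in that array, with 4.43 against 5.99 and 6.10. The part of handling or of the hour of harvest in the levels of COR15A, XERICO and LEA4-5 was not tested.

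Genes with the most similar profiles over the 6 arrays were found by the root mean square difference of log2 values after each gene's mean was subtracted, among probe sets of exactly 1 gene. For COR15A the closest was NDB2, a mitochondrial alternative NAD(P)H dehydrogenase, at a difference of 0.092 log2 units. NDB2 read 7.46, 8.07 and 8.21 in WT and 6.53, 7.29 and 6.55 in atrap, with WT replicate 1 lowest in WT and replicate 2 highest in atrap, as for COR15A. The next were AT2G41410, AT3G28540, AT2G41090 and AT5G18130, at 0.092 to 0.111. For XERICO the closest was AT1G30260, at 0.088, with 9.66, 9.09 and 9.80 in the atrap arrays and 10.16, 10.49 and 10.34 in WT. It shared with XERICO its lowest value in atrap replicate 2. AT2G07180, AT2G39400, AT2G42320 and AT2G36320 followed at 0.115 to 0.126. For LEA4-5 the closest were AT1G24575, AT5G39090, AT5G59845, ARPN (plantacyanin, a small copper protein) and AT1G72230, at 0.105 to 0.127. None of the chosen genes was among the 5 closest to another. Of 13512 genes ranked by closeness to COR15A, LEA4-5 came 493 and XERICO 1636, at differences of 0.38 and 0.50. In closeness to XERICO, LEA4-5 came 992 and COR15A 6725, and in closeness to LEA4-5, XERICO came 3763 and COR15A 5184. The chosen genes were selected as lower in atrap in these arrays, so their profiles have that step in common by choice. The difference was not scaled, so it also depends on how far each gene varied. The ranks are therefore given as a description, and nothing is read from them about how alike the chosen genes are.

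**Figure D4:**
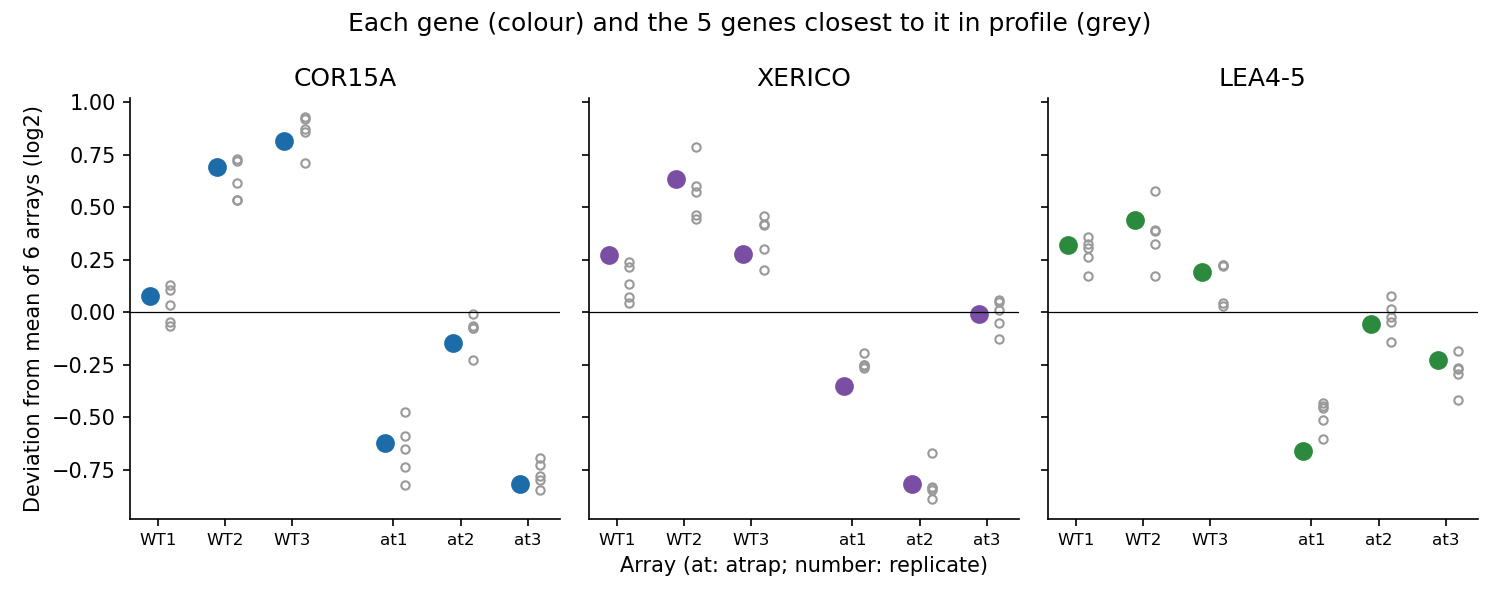
Deviation of each array from the gene's mean over 6 arrays (log2 units) for COR15A, XERICO and LEA4-5 in colour and, in grey, for the 5 genes closest to each. The 5 genes close to COR15A share its low WT replicate 1 and its high atrap replicate 2, and those close to XERICO share its low atrap replicate 2.

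Other genes of the cold response were then read. Of 16 genes listed for the cold regulon, 5 besides COR15A were measured, and 0 of these passed an adjusted p of 0.05 by limma, with 2 at an unadjusted p under 0.05, a level reached by 29.6% of all probe sets. COR15B, the paralog of COR15A at the adjacent locus, had a log2 fold change of -0.47 ± 0.13 (standard error). It read 5.75, 6.08 and 6.24 in WT and 5.54, 5.47 and 5.64 in atrap (log2), so its groups did not overlap, with WT replicate 1 only just above the mutant arrays. Without WT replicate 1 its log2 fold change was -0.61 and its adjusted p 0.0113 (limma), and without WT replicate 3 they were -0.37 and 0.125. Without WT replicate 3 and atrap replicate 2 they were -0.33 and 0.172. Cross-hybridisation between the COR15 paralogs was not tested. The dehydrin gene COR47 read 9.86, 10.22 and 11.23 in WT and 9.53, 9.67 and 9.50 in atrap, a log2 fold change of -0.87 ± 0.31 (limma, adjusted p = 0.111). That value rested in part on WT replicate 3 and was -0.48 without it and -1.16 without WT replicate 1 (adjusted p = 0.0803 and 0.0377). The dehydrin gene LTI30 was at -0.10 ± 0.10. In COR15A, COR15B, COR47 and LTI30, WT replicate 1 was the lowest and WT replicate 3 the highest WT array, though LTI30 ranged over only 0.21. In the other measured genes of this list, COR27 and AT4G33980, WT replicate 3 was the lowest and WT replicate 2 the highest. Of the 5 genes, 2 (COR15B and COR47) had every atrap array below every WT array, as had 16.5% of all probe sets. The reverse held for 1, AT4G33980, with a gap of 0.09 log2 units. COR27 and AT4G33980 had positive values, 0.18 ± 0.42 and 0.14 ± 0.07. Their WT means were 5.32 and 3.84, both under log2 6, where differences are compressed. Without atrap replicate 2, COR27 was at 0.72 with an adjusted p of 0.0442. Of 12 regulators of cold and drought genes on a further list, STZ (ZAT10, a zinc finger repressor) was measured, at -0.41 ± 0.33 (limma, adjusted p = 0.456). The CBF genes themselves were not analysed here.

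The LEA and dehydrin genes had 1 further member lower of 11 measured beside LEA4-5. The count was 2 of 13 when 2 genes found by name or synonym were added, where 6.41% of all probe sets were lower. The gene on the list was AT1G54410 (HIRD11, a small dehydrin), which changed by -0.91 ± 0.08 log2 units (± standard error; limma, adjusted p = 0.00413). It read 12.47, 12.53 and 12.61 in WT and 11.68, 11.65 and 11.56 in atrap. Its SD was 0.07 in WT and 0.06 in atrap, against 0.12 and 0.31 for LEA4-5. Unlike the 3 chosen genes, it kept an adjusted p under 0.05 (limma) in 17 of 17 alternative settings. The added gene was AT2G44060 (LEA26), which changed by -0.65 ± 0.09 log2 units (limma, adjusted p = 0.0103). It read 11.02, 11.15 and 11.12 in WT and 10.47, 10.58 and 10.31 in atrap. Its adjusted p was 0.0536 without WT replicate 2 and 0.0534 without atrap replicate 1. AT2G46140 (LEA27) was at -0.23 ± 0.14 and DI21 at 0.16 ± 0.11. The other group 4 LEA genes, AtLEA4-1 and LEA18, had log2 changes of 0.08 ± 0.07 and -0.07 ± 0.08. Their WT means were 4.24 and 3.70, and 9 of the 13 genes lay under log2 6 in WT, so for most of this family, including seed genes such as M10 and M17, the arrays could show little. The median log2 change of the 13 was 0.02, against 0.03 over all probe sets.

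Few of the genes listed around XERICO had a probe set paired with 1 gene. Of 20 dehydration genes listed, 1 was measured besides XERICO, AT4G15430, at -0.27 ± 0.26. DI19 and DOR, found as drought genes by name or synonym, were at -0.18 ± 0.12 and 0.04 ± 0.08. A search by name or synonym found 2 further RING-H2 genes. BRH1, which responds to brassinosteroid, changed by -0.76 ± 0.17 log2 units (limma, adjusted p = 0.0303), and RHF1A was at -0.16 ± 0.15. BRH1 read 9.45, 9.51 and 9.13 in WT and 8.73, 8.25 and 8.82 in atrap, with its lowest value in atrap replicate 2, as for XERICO. With 1 array left out, the adjusted p of BRH1 was above 0.05 without WT replicate 1 or 2 and without atrap replicate 1 or 3, with 0.112 as the highest of the 6 fits. The gibberellin receptor genes GID1A, GID1B and GID1C, measured from a list of 16 gibberellin and DELLA genes, were at -0.21 ± 0.09, 0.04 ± 0.13 and -0.07 ± 0.14, and 0 of 3 passed by limma, with 0 at an unadjusted p under 0.05. The 43 listed genes of ABA synthesis, turnover and signalling had no probe set paired with 1 gene and were not analysed here.

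Over all these lists, 21 genes besides the chosen 3 were measured of 128 entries, with 1 lower and 0 higher (limma). These were 4.76% and 0%, where 6.41% and 6.7% of all probe sets were lower and higher. Which listed genes could be read was set by the array's gene table, and none of the ABA genes could. The shares therefore cover only part of the lists, and nothing is read from them about the whole pathways. With the genes found by name or synonym the counts were 3 lower and 0 higher of 27. The median log2 change of the 27 was -0.07, against 0.03 over all probe sets. Protein-coding loci within 2 places of COR15A, XERICO or LEA4-5 in gene order, looked at after their values were known, had log2 changes from -0.47 for COR15B to 0.18, with 0 of 6 measured past the threshold by limma and 1 at an unadjusted p under 0.05, where 29.6% of all probe sets were.

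**Figure D5:**
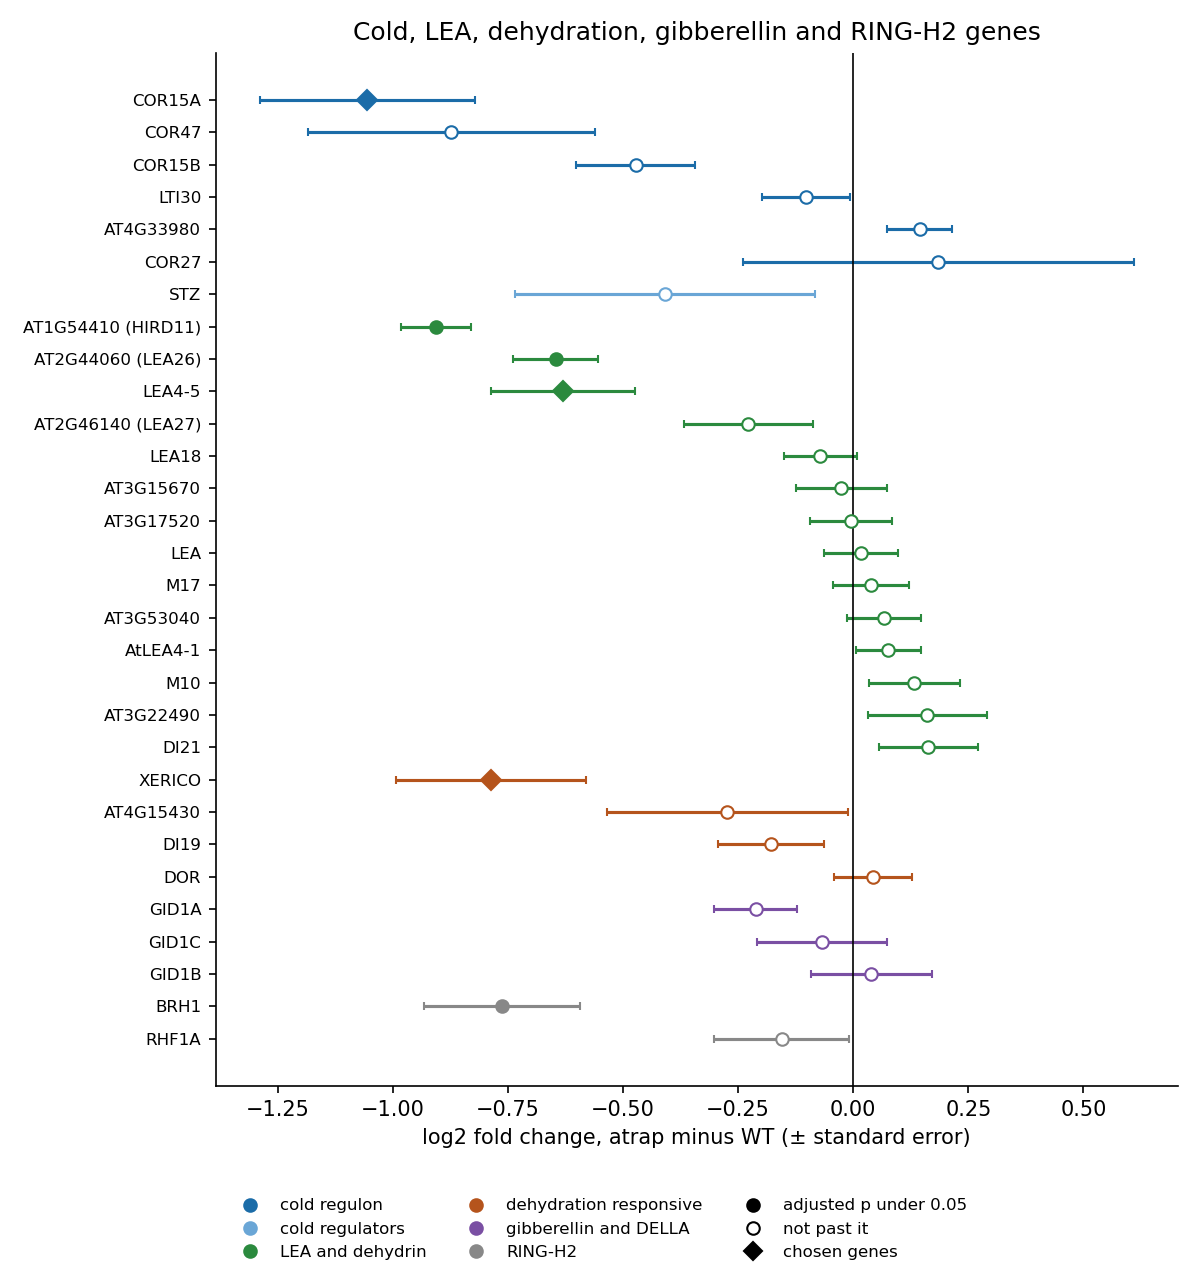
Log2 fold change (atrap minus WT, bars for the standard error) of COR15A, XERICO and LEA4-5 (diamonds) and of the other measured genes on the lists (circles), coloured by list, with filled symbols for an adjusted p under 0.05. Apart from the diamonds, AT1G54410, AT2G44060 and BRH1 are filled, at -0.91, -0.65 and -0.76.

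Few markers of leaf cell types had a probe set paired with 1 gene. RCA, the Rubisco activase gene of green leaf cells and the 1 measured of 6 mesophyll markers, read 14.85 to 14.94 over all 6 arrays. These values lay close to the highest of all, 15.01, so nothing is read from their constancy. Of 6 guard cell markers, FMA and AT1G22690 were measured, at log2 changes of 0.14 ± 0.09 and 0.27 ± 0.11, and 0 of 2 passed by limma, with 1 at an unadjusted p under 0.05 (29.6% of all probe sets). AT3G01570, the 1 measured of 12 seed and embryo markers, read 4.67 to 5.03 in WT and 4.93 to 5.22 in atrap. Root hair genes EXPA7 and EXPA18, of 5 root markers, had WT means of 5.18 and 5.84 and log2 changes of 0.24 ± 0.08 and -0.05 ± 0.09. Neither passed by limma, and 1 had an unadjusted p under 0.05. TRY, which acts in trichome patterning and was the 1 measured of 3 trichome markers, changed by -0.45 ± 0.11 log2 units (limma, adjusted p = 0.0435). Its adjusted p was above 0.05 without WT replicate 1 or 2 and without any 1 atrap array, at 0.0799 to 0.134. The part of these cell types in the levels of COR15A, XERICO and LEA4-5 was not tested.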

How the data were processed

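Leaf RNA of 3 WT and 3 atrap samples was extracted with TRIzol and biotin-labelled for Affymetrix arrays, per the labels' protocols and the series' design text. The authors deposited log2 values, 1 per probe set and array, for which the submitters' processing notes name RMA. Their software and probe set definition were not given in the sources used here. RMA brings the arrays to like distributions, so a shift shared by all transcripts would be largely lost, and it compresses changes of dim probe sets. An array has no read depth, and precision is limited by the number of arrays.

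Groups and replicate numbers came from sample titles. After 64 control probe sets were left out, 22746 were fitted without a block or filter by limma 3.58.1 (R 4.3.3), using lmFit and eBayes with two-sided p-values that were adjusted by Benjamini-Hochberg over all of them. The array's gene table paired 13513 probe sets with 1 gene. Of these, 13436 matched a locus in a gene table of assembly TAIR10.1, used for names, synonyms and gene order. The array's gene table did not list 8730 of the fitted probe sets. A gene of the lists without a paired probe set can therefore still have values on the arrays that were fitted but not named. Lists were matched by locus and widened by words in the names and synonyms. Named were the chosen genes, RAP, family members, list genes past the threshold or among the 3 brightest others, and 5 profile neighbours per gene. The members and lists were chosen with earlier results of these data known. The fit was tested on simulated data. Alternatives were a replicate block, normalization, filters, variance models, array weights and left-out arrays. Summaries used Python 3.11.15, numpy 2.4.6 and pandas 2.3.3, and figures matplotlib 3.10.9.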

Additional observations from a re-analysis of the deposited data

How the results depend on the processing

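Under the alternatives run, the log2 fold changes of COR15A, XERICO and LEA4-5 ranged from -1.28 to -0.91, from -0.98 to -0.57 and from -0.82 to -0.46. Because the groups did not overlap, leaving arrays out or weighting them could not turn the sign. The replicate block, the filters and the variance models leave a fold change unaltered by construction, so its constancy there tells nothing. An adjusted p under 0.05 was kept by COR15A in 12 of 17 settings, by LEA4-5 in 10 of 16 and by XERICO in 6 of 17. LEA4-5 has no value at the filter of log2 6, which its mean level does not reach. The unmoderated test left all 3 above the threshold (adjusted p = 0.148, 0.162 and 0.184 for COR15A, LEA4-5 and XERICO). The count of 2981 probe sets past the threshold (13.1% of those tested) became 5325 with array weights, 48 with the unmoderated test and 1541 over probe sets of 1 gene, and 350 to 3863 with 1 array left out. The count of 1541 is out of the 13513 probe sets paired with 1 gene, and the cause of these shifts was not tested. The 1 lower gene of the lists became 2 with the filter at the 30th percentile and 3 with array weights, and was 1 to 3 with 1 array left out. The 0 higher genes became 1, COR27, without WT replicate 3 and atrap replicate 2, and were 0 to 1 with 1 array left out. No listed gene had more than 1 probe set, so the mean over probe sets changed nothing and was not run. The replicate block gave 2101 probe sets, with log2 fold changes as reported and adjusted p-values of 0.0360 for COR15A, 0.0892 for XERICO and 0.0467 for LEA4-5. With the block BRH1 was at 0.0619 and TRY at 0.0635, and with the unmoderated test BRH1, AT2G44060 and TRY were at 0.141, 0.0718 and 0.143. Deviations of arrays with the same number correlated at 0.13, 0.02 and -0.15, so the numbers were not taken to pair the plants.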
